A study of Homo sapiens with 4 samples.

Results

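The genes of MHC class I antigen presentation were followed in motile and immotile cells of one colon cancer line. The 9 genes were 4 class I heavy chains (HLA-B, HLA-C, HLA-E and HLA-F), the light chain B2M, the peptide transporter pair TAP1 and TAP2 and the immunoproteasome subunits PSMB8 and PSMB9. Their probes were found by the RefSeq accession printed on the array, and 8 of the 9 had a probe well above background on all 4 arrays, among 15707 genes or unnamed transcripts of 40909 that met this condition. PSMB8 did not.

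HCT116 is a line of human colorectal carcinoma cells. Its MG cells had crossed the membrane of a migration chamber and its non-MG cells had stayed on the upper side, and each population was enriched by repeated rounds of this selection and cultured separately. Both were given 5 µM 5-azacytidine, a nucleoside that blocks DNA methyltransferases, or vehicle for 48 h. The 4 groups were therefore non-MG vehicle, non-MG 5-azacytidine, MG vehicle and MG 5-azacytidine, with 1 array each. No difference has a replicate check, no test was made, and each is given as a ratio of 2 arrays. All arrays lay on 1 slide, with non-MG cells in row 1, MG cells in row 2, vehicle in column 3 and 5-azacytidine in column 4, so the place of an array on the slide cannot be told apart from its condition. The 75th percentile of intensity lay between 75.2 and 98.7, between 21382 and 21881 probes were well above background, and 0 spots were saturated.

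Class I molecules display peptides from inside the cell to cytotoxic T cells. The proteasome cuts proteins, TAP1 and TAP2 pump the peptides into the endoplasmic reticulum, and a heavy chain binds a peptide there together with B2M before moving to the surface. PSMB8, PSMB9 and PSMB10 replace constitutive catalytic subunits of the proteasome when interferon is present. Loss of class I genes is a known way for colon tumours to avoid T cells, and DNA methylation is one of the layers that can silence them.

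The stretches just before the start sites are shown for the heavy chains with an entry and for B2M and TAP1, because binding motifs of interferon and NF-kappa B factors lie there in most of them. The 200 bases before each RefSeq start site are reference sequence, not HCT116 alleles, written 5′ to 3′ on the strand of the gene. Capitals mark matches, on either strand, to the interferon-stimulated response element core GAAANNGAA, to the GAS element TTCNNNGAA or to the kappa B consensus.
HLA-B (GRCh38.p14, chr6:31357180-31357379, minus strand): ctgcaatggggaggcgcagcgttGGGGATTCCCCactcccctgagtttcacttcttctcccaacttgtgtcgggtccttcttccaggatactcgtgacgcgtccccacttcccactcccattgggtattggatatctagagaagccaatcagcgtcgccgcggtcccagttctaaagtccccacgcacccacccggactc
HLA-C (GRCh38.p14, chr6:31272093-31272292, minus strand): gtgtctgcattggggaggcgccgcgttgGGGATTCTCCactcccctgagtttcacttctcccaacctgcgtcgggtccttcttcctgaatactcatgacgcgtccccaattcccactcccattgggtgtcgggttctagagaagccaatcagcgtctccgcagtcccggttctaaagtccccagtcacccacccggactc
HLA-F (GRCh38.p14, chr6:29723234-29723433, plus strand): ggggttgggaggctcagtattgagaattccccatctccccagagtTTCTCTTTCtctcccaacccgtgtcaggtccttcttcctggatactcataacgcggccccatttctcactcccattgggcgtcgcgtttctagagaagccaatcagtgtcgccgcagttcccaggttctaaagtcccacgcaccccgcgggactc
B2M (GRCh38.p14, chr15:44711317-44711516, plus strand): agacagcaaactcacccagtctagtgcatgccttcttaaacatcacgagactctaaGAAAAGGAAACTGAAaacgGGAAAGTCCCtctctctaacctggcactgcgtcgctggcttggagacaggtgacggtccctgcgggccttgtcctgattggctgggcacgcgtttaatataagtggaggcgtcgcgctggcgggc
TAP1 (GRCh38.p14, chr6:32853705-32853904, minus strand): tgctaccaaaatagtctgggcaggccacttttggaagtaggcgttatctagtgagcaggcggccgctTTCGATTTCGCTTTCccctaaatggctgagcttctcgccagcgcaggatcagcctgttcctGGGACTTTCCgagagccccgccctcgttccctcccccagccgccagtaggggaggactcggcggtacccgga

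In the window from 250 bases before to 50 after the start site, HLA-B and HLA-C held a kappa B match and no match to the response element core, and HLA-F held 1 match to the core. B2M held 2 overlapping matches to the core and 1 kappa B match. TAP1 held 2 overlapping matches to the core and 2 kappa B matches, and TAP2 held 1 match to the core. PSMB9, whose window overlaps that of TAP1 on the opposite strand, held none of the 3 motifs. TAP1 and PSMB8 have 2 RefSeq windows each, of which the first is given for TAP1. The second TAP1 window held 1 match to the GAS element and none to the core or kappa B. For PSMB8 the first held none of the 3 motifs, and the second held 1 match to the core and 1 to the GAS element. HLA-E is not in the table. Of all 35116 RefSeq windows, 8.11% held the core, 7.66% the GAS element, 11.3% the kappa B consensus and 34.6% the CCAAT box (CCAAT). The CCAAT box was found in HLA-B (3 matches), HLA-C (4), HLA-F (2), B2M (1), TAP1 (1) and PSMB9 (1). The number of CG dinucleotides, the sites that DNA methyltransferases act on, was 22 in HLA-B, 19 in HLA-C, 17 in HLA-F, 22 in B2M, 22 in TAP1, 24 in TAP2 and 26 in PSMB9, beside a median of 14 over all windows. The second TAP1 window held 11, and the PSMB8 windows held 17 and 15. Of all windows, 54% held fewer than that of HLA-F, 69.9% fewer than that of PSMB9 and 45.3% fewer than the second of TAP1. A match is a description of the letters only. No methylation of these windows was analysed here.

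All values below are log2 intensity minus the 75th percentile of the array, and ratios are differences of these values. Spot error is the SD expected for a ratio from the scatter among the spots of probes spotted 10 times. It covers spotting and scanning, not cultures or labelling. Probes differ in brightness by design, so levels were compared between arrays and never between genes.

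HLA-C, a ligand of both T cells and the inhibitory receptors of natural killer cells, measured 6.68 in non-MG vehicle, 6.55 in non-MG 5-azacytidine, 6.23 in MG vehicle and 5.91 in MG 5-azacytidine. Both MG arrays were below both non-MG arrays. The MG cells were lower by 0.44 with vehicle and 0.64 with 5-azacytidine on the log2 scale (spot error 0.07 each), and the second ratio, 1.56-fold, was the only one of the 32 ratios of these genes past 1.5-fold. Under median centring of the arrays it was -0.39 and with normexp background correction -0.55, both short of 1.5-fold.

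HLA-E, which presents leader peptides of other class I chains to natural killer cells, measured 5.65 in non-MG vehicle, 5.50 in non-MG 5-azacytidine, 5.16 in MG vehicle and 5.27 in MG 5-azacytidine. The MG cells were lower by 0.49 with vehicle and 0.23 after 5-azacytidine (spot error 0.07 each), although median centring turned the second ratio to 0.03. Like HLA-C, its non-MG arrays both lay above its MG arrays.

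HLA-F, a class I chain of narrower expression, measured 3.40 and 3.44 in the non-MG cells and 3.0 and 3.06 in the MG cells, as the mean of its 2 probes. The MG cells were lower by 0.41 with vehicle and 0.38 with 5-azacytidine (spot error 0.07 each). The 2 arrays of each cell type differed by less than the spot error, and both MG arrays lay below both non-MG arrays.

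HLA-B, a classical heavy chain, measured 5.34 in non-MG vehicle, 5.19 in non-MG 5-azacytidine, 5.02 in MG vehicle and 5.26 in MG 5-azacytidine. With vehicle both probes were lower in the MG cells, by 0.32 and 0.33. After 5-azacytidine the probes disagreed, at -0.14 and 0.28, which averaged 0.07 (spot error 0.05), and quantile normalization turned this mean to -0.07.

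The heavy chains are related in sequence, and signal from one may reach the probe of another. Between MG and non-MG cells, HLA-G had a ratio of -0.44 with vehicle and -0.26 with 5-azacytidine, and the pseudogene HLA-J had -0.47 and -0.29. How much of these signals came from shared sequence was not tested.

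**Figure D1:**
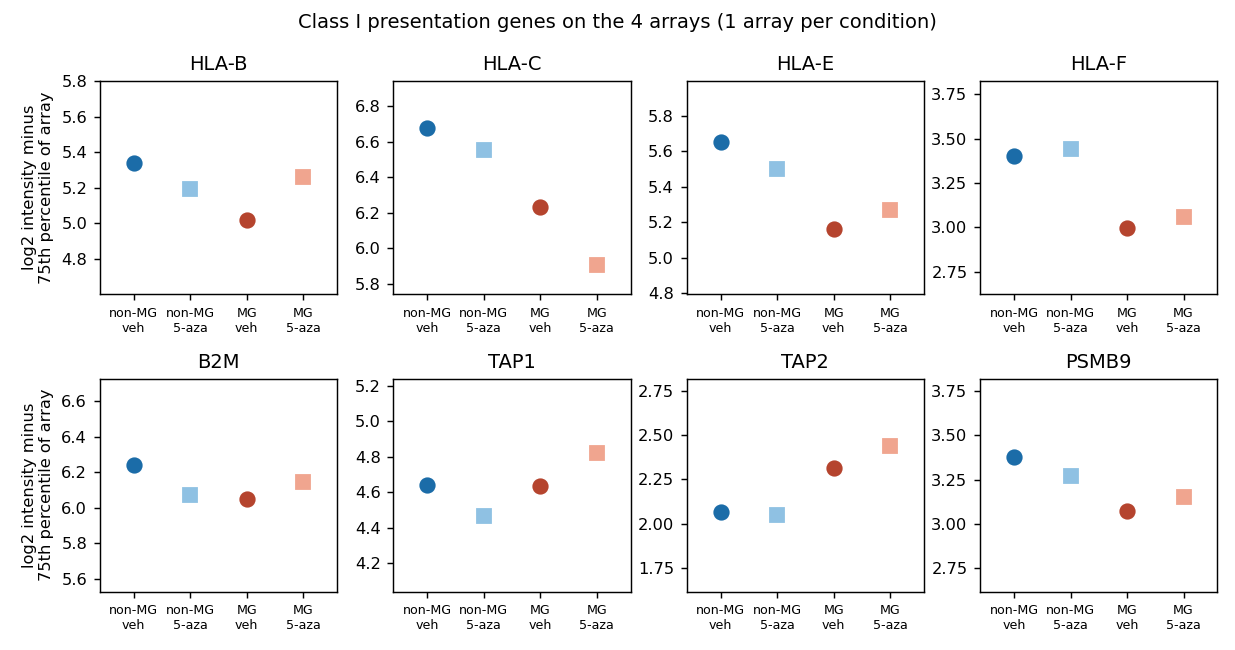
Log2 intensity minus the 75th percentile of the array (y axis, each panel spanning 1.2 units) for the 8 measured genes on the 4 arrays (x axis; circles vehicle, squares 5-azacytidine, blue non-MG, red MG). HLA-C, HLA-E, HLA-F and PSMB9 lay lower on both MG arrays, and TAP2 lay higher.

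B2M, the light chain of class I molecules, was spotted 10 times on each array. Its mean was 6.24 ± 0.05 (SD, 10 spots) in non-MG vehicle, 6.07 ± 0.06 in non-MG 5-azacytidine, 6.05 ± 0.11 in MG vehicle and 6.15 ± 0.05 in MG 5-azacytidine. The ranges of the spots overlapped between every pair of arrays. Its ratio between MG and non-MG cells was -0.19 with vehicle and 0.07 with 5-azacytidine (spot error 0.02 each), and median centring moved the first to 0.0029. The mean ratio of the heavy chains between the cell types was below that of B2M, by 0.22 with vehicle and by 0.37 with 5-azacytidine. No centring can move this difference. With 5-azacytidine the ratio of HLA-B, 0.07, was close to that of B2M, and HLA-C was the furthest below it, at -0.64.

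**Figure D2:**
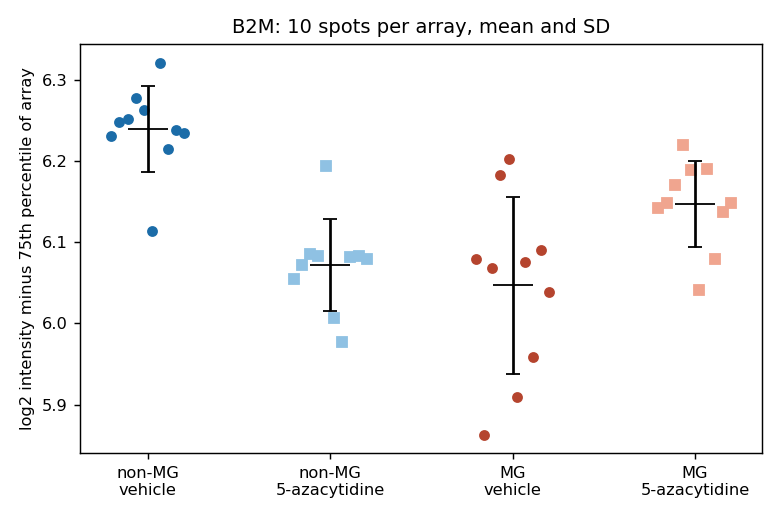
The 10 spots of the B2M probe on each array (points; y axis, log2 intensity minus the 75th percentile of the array), with the mean and SD in black. Non-MG vehicle had the highest mean, 6.24, and the spots of MG vehicle were the most scattered, with an SD of 0.11.

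TAP2, which pairs with TAP1 to form the peptide pump, measured 2.07 and 2.05 in the non-MG cells and 2.32 and 2.44 in the MG cells by its brighter probe. Both MG arrays lay above both non-MG arrays, with ratios of 0.25 and 0.39 (spot error 0.09 each). On none of the 4 arrays was its other probe well above background, and a mean that included it turned the ratio with vehicle to -0.19.

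TAP1 measured 4.64 in non-MG vehicle, 4.46 in non-MG 5-azacytidine, 4.64 in MG vehicle and 4.82 in MG 5-azacytidine. With vehicle the ratio between the cell types was -0.0048, inside the spot error, but it was 0.19 under median centring and -0.10 under quantile normalization. The ratio was 0.36 after 5-azacytidine (spot error 0.07), which passed 1.5-fold with normexp (0.59) and with median centring (0.61). Within the arrays, the mean of TAP1 and TAP2 exceeded that of the 4 heavy chains by 0.54 in the ratio with vehicle and by 0.67 in the ratio with 5-azacytidine. These differences do not depend on how the arrays were centred.

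PSMB9, which replaces a constitutive catalytic subunit and shares a divergent promoter region with TAP1, measured 3.38 and 3.27 in the non-MG cells and 3.07 and 3.15 in the MG cells. Its ratios were -0.30 with vehicle and -0.12 with 5-azacytidine (spot error 0.08 each), and median centring turned the second to 0.13. PSMB8 encodes another replaceable catalytic subunit. No array had its single probe well above background, and it is left without a ratio.

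Taking the 8 genes as a list, 0 were higher past 1.5-fold in the MG cells with vehicle, where 5.68% of all genes were, and 0 were lower, where 8.24% were. With 5-azacytidine 0 were higher (5.74% of all genes) and 1 was lower (7.33%). The median ratio of the 8 was -0.31 with vehicle, beside -0.01 over all genes, and -0.03 with 5-azacytidine, beside 0.02. Centring each array on its median raised the ratios of all genes by 0.20 with vehicle and 0.26 with 5-azacytidine. The share of calls that were higher then went from 40.8% to 78.0% with vehicle and from 43.9% to 88.3% with 5-azacytidine. The array medians, 6.90 to 7.47 in intensity, lay below the lowest signals well above background, 9.95 to 11.8, so median centring rests on dim probes.

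5-azacytidine moved none of the 8 past 1.5-fold in either cell type. In the non-MG cells 1.90% of all genes were higher and 1.68% lower, and the median of the 8 was -0.13 beside -0.04 over all genes. In the MG cells 3.02% were higher and 2.10% lower, and the median was 0.10 beside -0.02. In the non-MG cells 7 of the 8 ratios were below 0, as were 58.1% of the ratios of all genes. HLA-F, at 0.04, was inside its spot error of 0.07 and turned to -0.06 with normexp and with median centring, and TAP2, at -0.02, turned to 0.09 with dim signals raised to the detection limit. In the MG cells 1 of the 8 was below 0, HLA-C at -0.33, beside 54.2% of all genes. PSMB9 turned from 0.08 to -0.02 with normexp. For HLA-B the ratio was -0.15 in non-MG and 0.24 in MG cells, and for TAP1 it was -0.18 and 0.19. Whether these ratios differ between MG and non-MG cells was not tested.

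**Figure D3:**
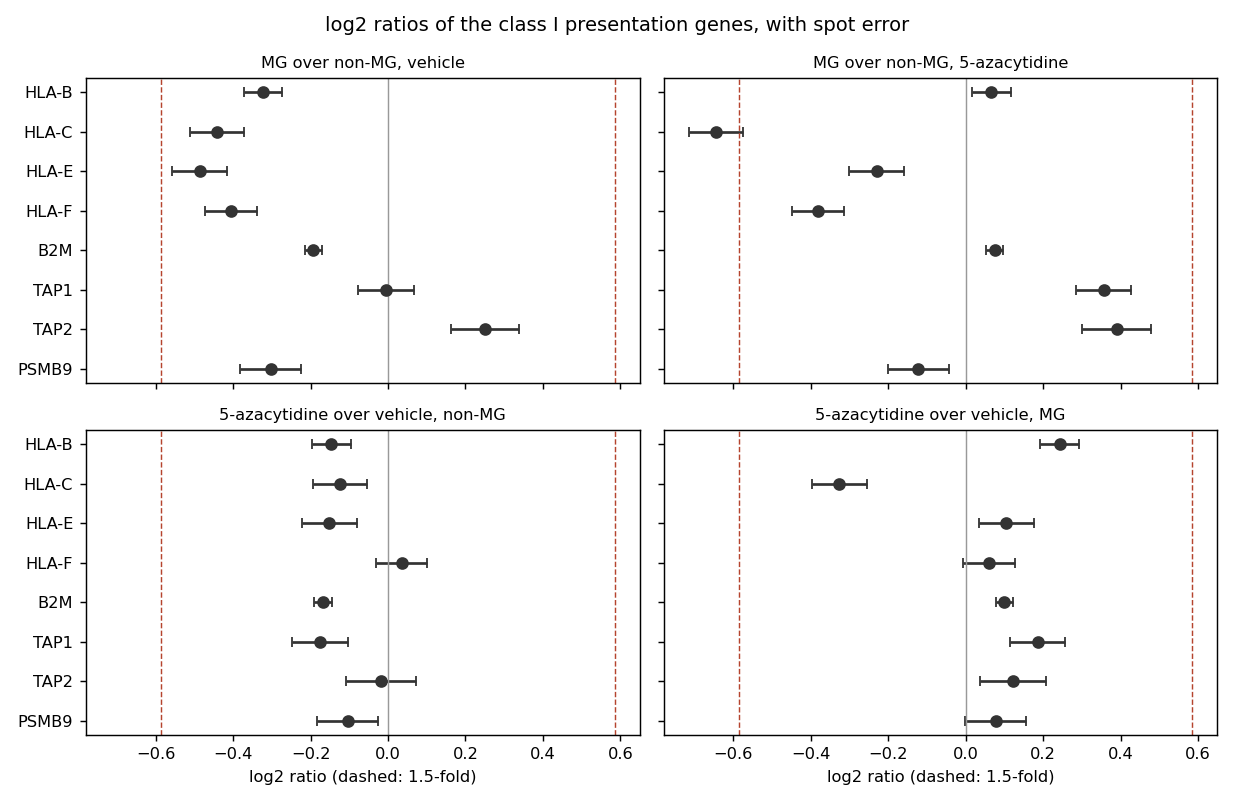
Log2 ratios (x axis) of the 8 measured genes in the 4 comparisons, with the spot error as bars and 1.5-fold as dashed lines. HLA-C after 5-azacytidine, at -0.64, is the point beyond a dashed line.

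The rest of the proteasome was measured on the same arrays. All 15 genes listed with the constitutive core were above the median of all genes in both comparisons of the cell types, with medians of 0.32 with vehicle and 0.29 with 5-azacytidine, and stayed at medians of 0.27 or more under normexp, quantile normalization and median centring. PSME3, a nuclear proteasome activator kept in this list, was higher past 1.5-fold in both (0.73 and 0.83), and the core subunits PSMA7 (0.61) and PSMA4 (0.61) with vehicle, although PSMA4 fell short of it under quantile normalization. Of the 4 inducible partners, POMP, the assembly factor of the proteasome, was higher past 1.5-fold in both (0.83 and 0.82), the second not with normexp. PSMB10, the remaining replaceable catalytic subunit, had ratios of 0.55 and 0.40, above those of PSMB9 by 0.85 and 0.52. The 4 partners did not all rise: their lowest ratio was -0.21 with vehicle and -0.33 with 5-azacytidine, around medians of 0.28 and 0.24.

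Of 9 genes of peptide loading and trimming, 0 passed 1.5-fold in any comparison. TAPBP, or tapasin, which bridges the heavy chain to the transporter, had ratios of -0.52 and -0.35 in the MG cells. CALR, a chaperone of the loading complex, had 0.09 and 0.12. The 2 PDIA3 probes averaged 0.23 with vehicle and -0.45 with 5-azacytidine.

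Among 11 measured transcription factors of class I genes, CREB1 was higher past 1.5-fold in the MG cells in both comparisons (0.86 and 0.87) and NFKB1 with 5-azacytidine (0.66). CREB1 passed in neither comparison with normexp, and NFKB1 did not pass under quantile normalization. IRF1, which binds the response element, measured -0.02 and -0.41 in the non-MG cells and -0.57 and -0.10 in the MG cells. NLRC5, the coactivator of class I genes, was not well above background on all 4 arrays.

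Of 15 interferon receptor and signalling genes, SOCS1 (-1.04), STAT2 (-0.65) and SOCS3 (-0.59) were lower past 1.5-fold in the MG cells with vehicle, against 0 lower with normexp and 1 under median centring. STAT2 (-0.59) and SOCS3 (-0.62) were lower again with 5-azacytidine, while SOCS1 had -0.10 and the interferon gamma receptor chain IFNGR2 was higher (0.79). With normexp and under median centring 0 of these genes were lower with 5-azacytidine. SOCS1, an inhibitor of interferon signalling, was higher past 1.5-fold after 5-azacytidine in the MG cells (0.84), but not with normexp.

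Interferon-stimulated genes had a median of -0.35 in the MG cells with vehicle. Of the 19 measured, 6 were lower past 1.5-fold, led by IFITM1 (-1.45), BST2 (-1.44) and IRF7 (-1.23), and 0 were higher. Over all genes 8.24% were lower and 5.68% higher. Under median centring 5 were lower and the median was -0.15, beside 0.18 over all genes. With 5-azacytidine 3 were lower and 2 higher, beside 7.33% and 5.74% of all genes, and the median was -0.05. Median centring gave 1 lower and 4 higher with a median of 0.20, beside 0.27 over all genes, and normexp gave 1 lower and 1 higher. IRF7, a transcription factor of the interferon response, measured 3.08, 3.49, 1.85 and 3.27 in non-MG vehicle, non-MG 5-azacytidine, MG vehicle and MG 5-azacytidine, so that the array of MG vehicle stood alone. ISG15 had ratios of 0.14 and 0.11. After 5-azacytidine, IRF7 (1.42) and BST2 were higher past 1.5-fold in the MG cells, where 3.02% of all genes were. Normexp kept IRF7 alone. In the non-MG cells 0 passed 1.5-fold after 5-azacytidine, although 2 were lower under median centring and 1 with normexp. Of the 6 interferon genes with a probe, 5, among them IFNG and IFNB1, were not well above background on all 4 arrays.

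Of 9 measured class II genes, which normally mark antigen-presenting cells, HLA-DQB1 (-0.72) and HLA-DRA (-0.65) were lower past 1.5-fold in the MG cells with vehicle, HLA-DMB (-0.71) was lower with 5-azacytidine, and HLA-DPA1 was higher after 5-azacytidine in the MG cells (0.72). The class II median was -0.46 with vehicle and 0.05 with 5-azacytidine, and normexp turned the second to -0.08. Between the cell types 0 class II genes were past 1.5-fold under median centring or with normexp, and the HLA-DPA1 call was also lost with normexp. The 16 measured neighbours in the MHC region had medians of 0.07 and 0.08, with TUBB higher in both (0.70 and 0.62), the second not under quantile normalization. TNXB was lower past 1.5-fold with vehicle (-0.88), but not with normexp, and KIFC1 was higher with 5-azacytidine (0.83).

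**Figure D4:**
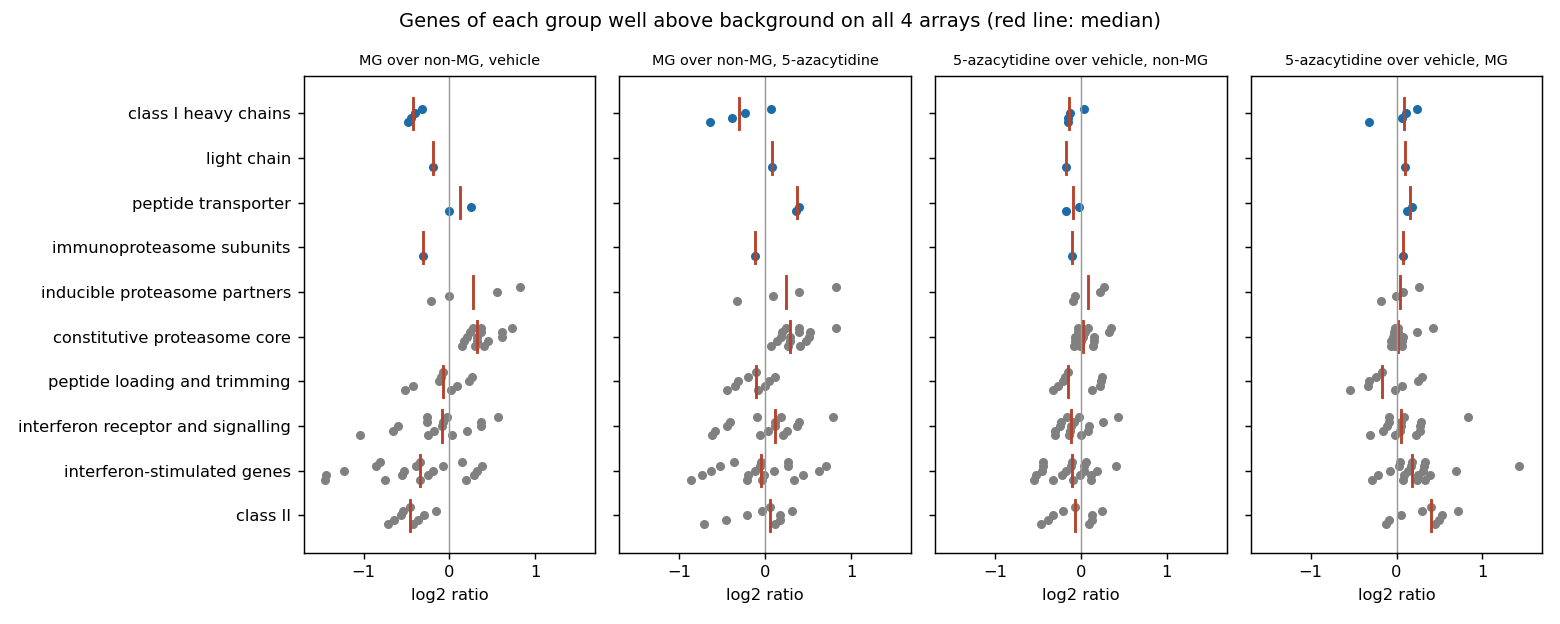
Log2 ratios (x axis) of genes well above background on all 4 arrays, by group (rows), in the 4 comparisons (panels), with the median of each group as a red line. In the left panel the heavy chains lay below 0 and the constitutive core above it.

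Of 11 markers of colon epithelium, 10 were well above background on all 4 arrays, against 4 of 10 leukocyte markers with a probe, 1 of 6 fibroblast and 1 of 4 endothelial markers. PTPRC, the defining leukocyte gene, was not. The epithelial list had a median of 0.0062 in the MG cells with vehicle, with 5 of 10 genes above the median of all genes, EPCAM at 0.05 and CDX2 at 0.33. CLDN3 (-0.85), CLDN4 (-0.73) and CDH1 (-0.66) were lower past 1.5-fold in the MG cells with vehicle, and KRT20 was higher after 5-azacytidine in non-MG (1.42) and MG cells (1.85). Median centring left CLDN3 alone of the 3 past 1.5-fold, and normexp left CLDN3 and CLDN4, and left KRT20 past it in the MG cells and not in the non-MG cells. Of the 4 leukocyte markers, CD14 (0.87 and 1.0) and CD3D (0.81 and 0.88) were higher past 1.5-fold after 5-azacytidine in the non-MG and MG cells, CD68 (0.30 and 0.82) in the MG cells, and FCER1G had -0.46 and 0.06. With normexp 0 of the 4 passed in either cell type. CD14, at intensities of 13.5 to 27.1, and CD3D, at 21.0 to 39.0, were dim. The lowest signals well above background were 9.95 to 11.8. Spot errors in the non-MG and MG cells were 0.30 and 0.34 for CD14 and 0.26 and 0.25 for CD3D. The part of the cell type markers in the ratios of the class I genes was not tested.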

How the data were processed

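RNA of 4 cultures was hybridized to one-colour Agilent SurePrint G3 arrays. The labels name RNAiso Plus for extraction and the methods an RNeasy kit. For each array the authors deposited Agilent Feature Extraction output (version 11.5.1.1), in which each spot has a linear, background-corrected intensity, not normalized between arrays. A further table that the authors deposited holds log2 values of 24189 probes, each with its median over the 4 arrays set to 0. The methods name GeneSpring. Column medians were 0.01, -0.01, 0.01 and -0.01, its ratios had a slope of 1 against those computed here, and the centring constant of each probe stays unknown.

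Control and outlier spots were left out, which removed 5 of 50599 probes. Log2 intensity minus the 75th percentile of each array was averaged over spots and over the probes of a gene that were well above background on all 4 arrays, 19808 probes, of which 84.0% were named through RefSeq (GRCh38.p14). A gene counted past 1.5-fold. With 1 array per condition no test was made, and the number of arrays limits the precision. All members are named, and from each other list genes past 1.5-fold or with a known role. IRF1, TAPBP, CALR, PDIA3, PSMB10, ISG15, HLA-G and HLA-J were named after their values were seen. The 5 genes of most similar profile were to be named only if the mean profile spanned over 0.58, and it spanned 0.24. Members and lists were chosen with earlier results of these data known. The calls were run on simulated data with spot scatter only and with changes larger than 1.5-fold. That run could not test variation between cultures or changes near the threshold. Alternatives were normexp (offset 50, on median spot intensity), quantile normalization, median centring, other filters, the brightest probe, the deposited values and other thresholds. The tools were Python 3.11.15 with pandas 2.3.3, numpy 2.4.6 and matplotlib 3.10.9, and limma 3.58.1 in R 4.3.3.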

Additional observations from a re-analysis of the deposited data

Results flagged for a closer look

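The ratio of 5-azacytidine over vehicle ran in opposite directions in the 2 cell types, beyond the spot error in each, for 4 of the 8 genes. The share of all genes that met this rule was not counted, so 4 of 8 cannot be called unusual. The MG ratio exceeded the non-MG ratio by 0.39 for HLA-B (0.24 against -0.15), by 0.36 for TAP1 (0.19 against -0.18), by 0.27 for B2M (0.10 against -0.17) and by 0.26 for HLA-E (0.10 against -0.15). With 1 array per condition the difference was not tested. For HLA-B the MG ratio averaged probes at 0.08 and 0.40, and with the brightest probe alone the ratios were 0.08 and -0.09. In each of these genes both ratios kept their sign under normexp, quantile normalization and median centring. The filters on dim probes left these values unchanged and so could not test the signs. The deposited values come from the same arrays.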

How the results depend on the processing

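Of the 32 ratios of single genes, 23 kept their direction under all 8 alternatives that recompute values and 9 did not. Not all 8 could move each gene. Among these genes the filters on dim probes moved only TAP2, and the brightest probe moved only HLA-B and HLA-F. The deposited values come from the same arrays. The count past 1.5-fold in MG over non-MG cells with 5-azacytidine was 1 (HLA-C), became 2 (TAP1 and TAP2, without HLA-C) under median centring and 0 at a 2-fold threshold. With normexp it was again 1, but the gene was TAP1 (0.59) and not HLA-C (-0.55). With vehicle it was 0 and became 1 (HLA-E) at 1.4-fold. With no filter on dim probes it became 1 (PSMB8, not well above background on any array) between the cell types with vehicle and in both comparisons of 5-azacytidine with vehicle. The median of the genes between the cell types with vehicle, -0.31, was -0.21 with normexp and -0.12 with median centring. With 5-azacytidine, -0.03, it was -0.17 with quantile normalization, 0.23 with median centring, -0.12 with no filter or with dim signals raised to the detection limit, and -0.13 with the brightest probe. For 5-azacytidine over vehicle in non-MG cells, -0.13, it was -0.23 with median centring. The cause was not tested. Normexp moved the share of all calls that were higher from 40.8% to 58.6% with vehicle and from 43.9% to 79.8% with 5-azacytidine. With no filter the median of all genes moved by 0.12 in 5-azacytidine over vehicle in non-MG cells, and by 0.24 with raised signals. With 1 slide no slide block could be fitted, and no replicate could be left out. No paired analysis was possible because the groups compared share 1 replicate number, which pairs no replicates. An additive fit of cell type and drug over the 4 arrays, which takes their interaction as error, was not run.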
